A study of Homo sapiens with 12 samples.

Results

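The genes of cholesterol synthesis, SREBP regulation, low-density lipoprotein uptake and LXR-driven efflux were followed in 786-O cells, an established human clear-cell renal carcinoma line, after treatment with an mTOR inhibitor and a DNA methyltransferase inhibitor. The 31 genes were taken by symbol from a list that was chosen with earlier results of these data known. All 31 were among the 17085 genes of the count table. Of these, 30 passed the filter on low counts, as did 12841 genes in all, and ABCG1 did not. RNA sequencing covered 4 groups of 3 libraries each, all of the same line and all exposed for 24 h. The DMSO group received vehicle, the everolimus group 5 µM everolimus, the SGI-1027 group 1.5 µM SGI-1027, and the combination group 5 µM everolimus with 1.5 µM SGI-1027. The sample tags give 5 µM for everolimus alone, whereas the free-text protocol of the same records gives 10 µM, so the dose of the everolimus group is uncertain. The groups are replicate treatments of a single cell line in serum-containing medium, and the p-values measure only the spread between these libraries, which may be technical.

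Cells make cholesterol from acetyl-CoA through the mevalonate arm, which ends in farnesyl and geranylgeranyl diphosphate, and the sterol arm, which starts by joining farnesyl units to squalene. When membrane sterol falls, SCAP carries SREBP2, the product of SREBF2, out of the endoplasmic reticulum to be cleaved, and the released factor switches on most synthesis genes. INSIG1 and INSIG2 hold SCAP back when sterol is plentiful, and INSIG1 is itself a target of SREBP2. When oxysterols accumulate, the LXR receptors NR1H2 and NR1H3 act in the opposite direction by raising the exporters ABCA1 and ABCG1 and the ubiquitin ligase MYLIP, which removes lipoprotein receptors from the cell surface. Clear-cell renal carcinoma is known for cells filled with cholesteryl esters and triglycerides.

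To show where the factors of this circuit could read the genes, promoter sequences from RefSeq (GRCh38.p14) were searched over the 250 bases before each annotated start, on both strands, for the sterol response element TCACNCCAC, the NF-Y box CCAAT and the E-box CACGTG. Windows were found for 27 of the 31 genes, 38 windows in all, and not for ACAT2, FDFT1, SQLE or ABCG1. The NF-Y box was present in 23 of the 38 windows, against 32% of the 35116 windows of all genes. An E-box was present in 5 windows, against 6.34%, and the sterol response element in 1, against 0.883%. These shares describe letters in a window and not bound sites, and a window without a match says only that the letters are not there. The stretches below run 5′ to 3′ on the strand of the gene and stop before its first base annotated in GENCODE release 29, with matches in capitals (ATTGG is the NF-Y box read from the other strand). HMGCS1 (chr5:43313513-43313662, minus strand) stands for synthesis, INSIG1 (chr7:155297628-155297775, plus strand) for sterol feedback and ABCA1 (chr9:104928238-104928405, minus strand) for efflux. SREBF2 (chr22:41832855-41833078, plus strand) was added after the search because it held the only sterol response element, which begins 133 bases before the RefSeq start that ends the searched window. The HMGCS1 window shown in part here holds another NF-Y box, and that of INSIG1 an E-box, both outside the printed bases.
HMGCS1: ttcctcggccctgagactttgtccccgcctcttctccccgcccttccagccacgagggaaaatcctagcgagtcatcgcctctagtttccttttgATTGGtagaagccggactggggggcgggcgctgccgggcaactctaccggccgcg
INSIG1: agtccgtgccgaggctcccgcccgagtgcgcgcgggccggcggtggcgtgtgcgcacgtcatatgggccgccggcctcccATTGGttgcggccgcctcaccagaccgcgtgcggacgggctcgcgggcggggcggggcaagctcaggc
SREBF2: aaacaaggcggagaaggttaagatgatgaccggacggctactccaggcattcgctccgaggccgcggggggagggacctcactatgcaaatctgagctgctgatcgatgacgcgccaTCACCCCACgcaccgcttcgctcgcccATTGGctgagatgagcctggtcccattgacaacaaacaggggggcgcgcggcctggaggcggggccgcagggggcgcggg
ABCA1: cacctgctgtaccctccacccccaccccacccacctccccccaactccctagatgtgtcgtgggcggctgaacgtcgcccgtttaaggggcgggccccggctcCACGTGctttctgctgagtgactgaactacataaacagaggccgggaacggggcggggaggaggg

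The libraries held between 37046231 and 41516976 counts, so depth differed little between groups. The kidney lineage factor PAX8 was between 77.6 and 119 FPKM and the epithelial keratin KRT8 between 467 and 618.5 FPKM in every library, while the hypoxia-induced carbonic anhydrase CA9, often used as a clear-cell marker, was near 0, with 2 to 32 counts. Each of the 5 immune markers had at most 2 counts and each of the 3 endothelial markers at most 12 counts in any library. DMSO replicate 1 and SGI-1027 replicate 3 stood apart from their groups. The mean chi-square per gene between libraries was 10.1 and 12.9 for DMSO replicate 1 against the other DMSO libraries, and 16.4 and 16.1 for SGI-1027 replicate 3 against the other SGI-1027 libraries. The remaining same-group pairs lay between 3.04 and 5.46. Both libraries read low for several synthesis genes, so calls against DMSO that rest on them are given with and without them. For the other comparisons this is done only in part, some as counts of genes. In bulk RNA, a lower level in every cell cannot be told apart from fewer cells that express the gene.

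Levels are given as counts scaled to library size by TMM (CPM), in the order of replicates 1 to 3. A gene is said to have risen or fallen where the quasi-likelihood test of edgeR gave an adjusted P, over all 12841 genes, under 0.05. On a scale per transcript length, FDPS (81.2 ± 5.45 FPKM, SD, n = 3), ACAT2 (67.4 FPKM), EBP (58.5 FPKM) and DHCR7 (55.2 FPKM) were the most abundant of the genes in the DMSO group. The lowest tested levels were those of TM7SF2 at 1.03 FPKM and STARD4 at 2.04 FPKM. Compared with DMSO, 4 of the 30 tested genes rose and 10 fell in the everolimus group, where 27.2% of all tested genes rose and 29.2% fell. In the SGI-1027 group 8 rose and 7 fell, against 32% and 30.6% of all tested genes. In the combination group 16 rose and only TMEM97 and MYLIP fell, against 32.8% and 33.4%. The 3 comparisons share the same DMSO libraries, so their counts are not independent of each other.

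**Figure D1:**
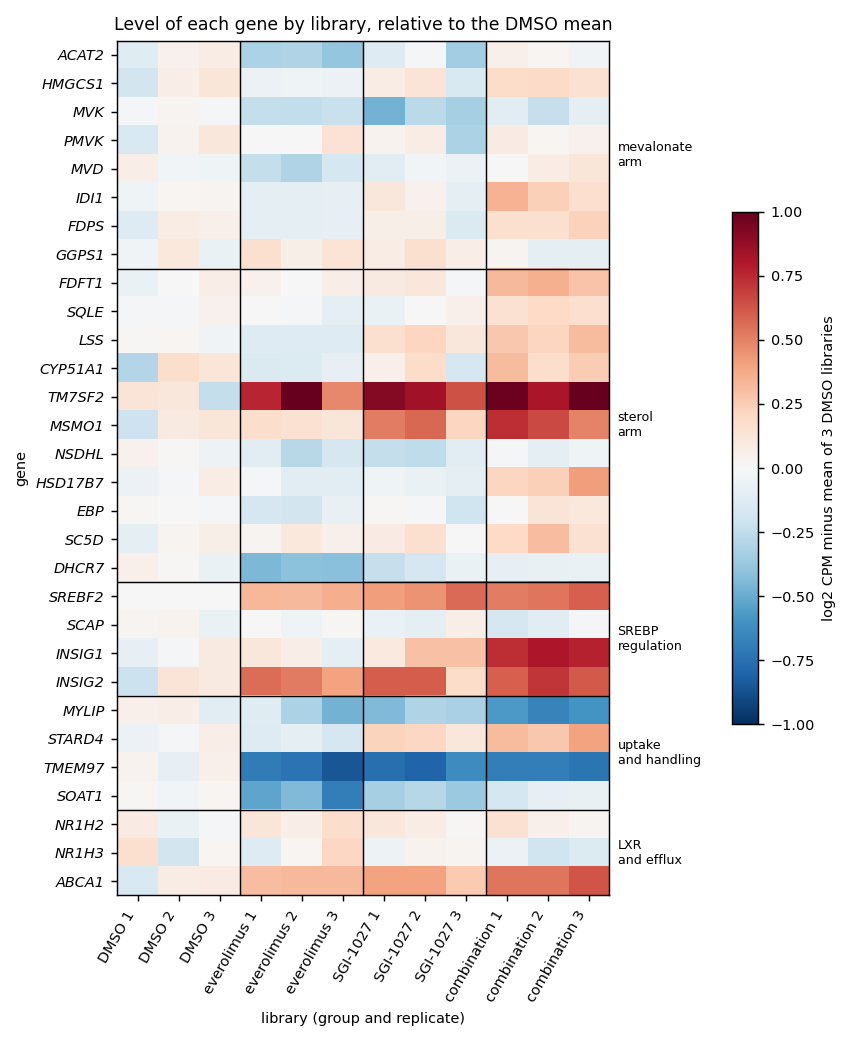
Level of each of the 30 tested genes (rows, by role) in each of the 12 libraries (columns), as log2 CPM minus the mean of the 3 DMSO libraries, with the colour scale ending at 1 and -1. SREBF2, INSIG2, TM7SF2 and ABCA1 are red in all treated groups, TMEM97 is blue in all of them, and INSIG1 is darkest in the combination libraries.

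Most changes were modest. With the study's cut-off (log2 fold change of 1 or more in either direction, P under 0.05), only TM7SF2 in the combination group qualified. Of all tested genes, 4.79% met it with everolimus, 7.33% with SGI-1027 and 9.96% with both drugs. TM7SF2, SREBF2, INSIG2 and ABCA1 rose, and MYLIP and TMEM97 fell, in all 3 treated groups. PMVK, GGPS1, SCAP, NR1H2 and NR1H3 met the threshold in none of the 3 groups. Some did in other settings. With everolimus, GGPS1 passed under upper-quartile scaling (0.19, adjusted P = 0.0188) and without DMSO replicate 2 (0.17, adjusted P = 0.0486). NR1H2 passed with everolimus under upper-quartile scaling (0.19, adjusted P = 0.00586), with a filter of 10 counts per library (0.13, adjusted P = 0.0461) and without DMSO replicate 1 (0.16, adjusted P = 0.0229), and with the combination under upper-quartile scaling (0.13, adjusted P = 0.0450). Without DMSO replicate 1 and SGI-1027 replicate 3 together, a setting chosen after seeing the data, NR1H2 was called higher in all 3 treated groups. The values were 0.16 with everolimus (adjusted P = 0.00718), 0.14 with SGI-1027 (adjusted P = 0.0373) and 0.12 with the combination (adjusted P = 0.045). SCAP passed with the combination without SGI-1027 replicate 3 (-0.10, adjusted P = 0.0480) or combination replicate 3 (-0.14, adjusted P = 0.0320).

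**Figure D2:**
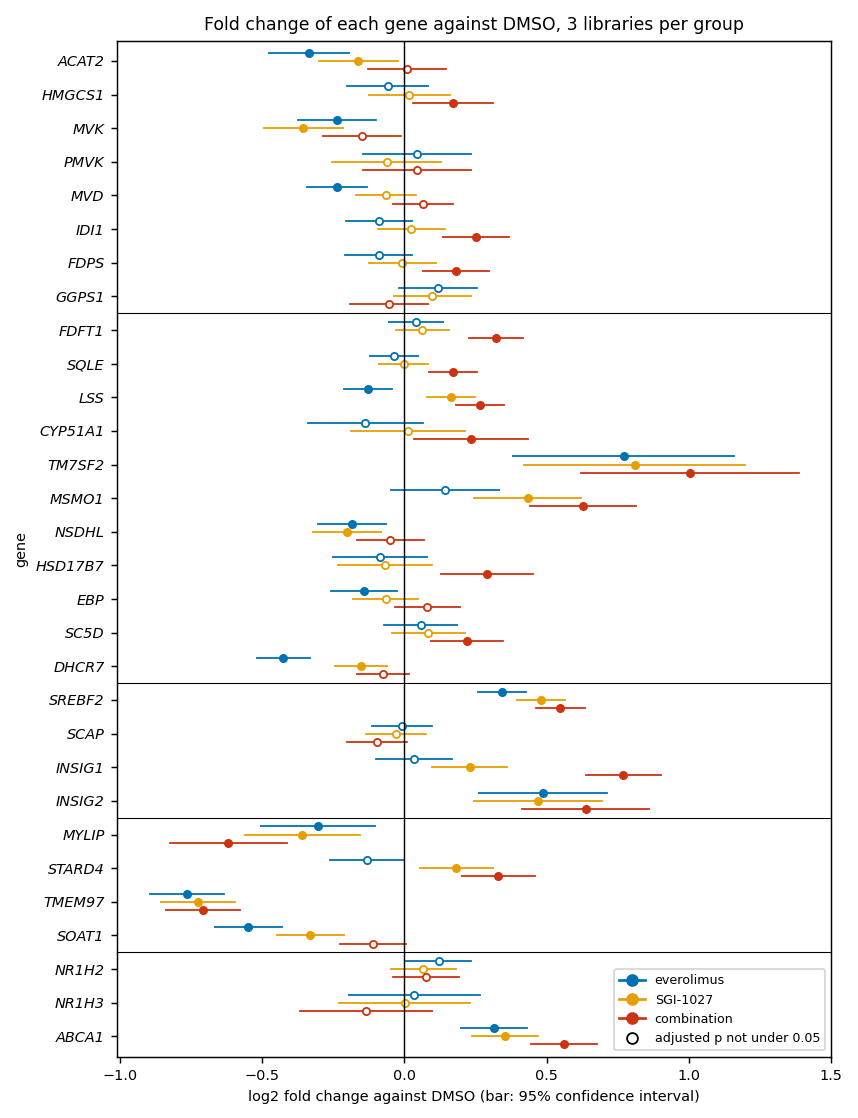
Log2 fold change of each of the 30 tested genes against DMSO with its 95% confidence interval, for the everolimus, SGI-1027 and combination groups (3 libraries each), with filled points for adjusted P under 0.05. In the sterol arm 8 of 11 combination points are filled and to the right of 0, while TMEM97 lies between -0.77 and -0.71 in all 3 groups.

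In the mevalonate arm, which builds the isoprenoid units, the everolimus group had lower levels of 3 of 8 genes and the combination group higher levels of another 3. ACAT2 makes acetoacetyl-CoA, the entry substrate, and fell by 20.8% with everolimus (log2 fold change -0.34 ± 0.07, SE). MVK and MVD, a kinase and the decarboxylase of the arm, both fell by 15.2%. No gene of the arm rose with a single drug, and ACAT2 (-0.16) and MVK (-0.36) were the 2 that fell with SGI-1027. The ACAT2 call with SGI-1027 was weak, and leaving out any of 8 libraries (DMSO replicates 2 and 3, everolimus 1 and 2, SGI-1027 1 and 3, combination 1 and 2) gave adjusted P values of 0.0510 to 0.216, as upper-quartile scaling gave 0.176. In GENCODE, 45.8% of the exonic length of ACAT2 also lies in SOD2-OT1, 34.8% in SOD2 and 12.5% in TCP1, all on the other strand. Without strand-aware counting their reads could not be told apart. Opposite-strand RNAs cover 28.9% of FDPS (RUSC1-AS1) and 19.9% of HMGCS1 (AC114947.2), and TBCE on the same strand covers 11.3% of GGPS1. In the combination group IDI1, FDPS and HMGCS1 rose, and the median of the arm was 0.05 compared with -0.09 with everolimus and -0.04 with SGI-1027.

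IDI1, which interconverts the isoprene building blocks, had 50.3, 52.7 and 52.9 CPM in the DMSO group, 48.8, 48.7 and 49.1 with everolimus, 56.1, 53.6 and 48.9 with SGI-1027, and 66.0, 61.3 and 58.5 with the combination. Every combination library was above every other library. The increase over DMSO was 0.25 ± 0.06 (SE) on the log2 scale, with an adjusted P of 0.000566. Without DMSO replicate 1 and SGI-1027 replicate 3 together, IDI1 was lower with everolimus than with DMSO (-0.11, adjusted P = 0.045). FDPS, the synthase of farnesyl diphosphate, had 127, 146 and 143 CPM with DMSO, 129.6, 130.1 and 131 with everolimus, 144, 144 and 125 with SGI-1027, and 154.5, 154 and 162 with the combination. Again the combination libraries were the highest, and the rise was 0.18 ± 0.06 (SE), adjusted P = 0.00839. Without DMSO replicate 1, FDPS was lower with everolimus than with DMSO (-0.15, adjusted P = 0.0181). GENCODE release 29 names 8 pseudogenes after FDPS, and how reads shared with them were counted is not given in the sources used here.

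HMGCS1, the enzyme that condenses acetyl-CoA units and a classical SREBP2 target, had 148, 175 and 182 CPM with DMSO, 161, 163 and 161 with everolimus, 176.5, 183 and 151 with SGI-1027, and 191, 191 and 186 with both drugs. The combination libraries were above all DMSO libraries, but DMSO replicate 1 was well below the other DMSO values. The rise of 0.17 ± 0.07 (SE) had an adjusted P of 0.0339. Without DMSO replicate 1 it was 0.09 with an adjusted P of 0.189, and without combination replicate 1, 2 or 3 the adjusted P was 0.0718, 0.0751 and 0.0532. Without DMSO replicate 1, HMGCS1 was also lower with everolimus than with DMSO, at -0.15 with an adjusted P of 0.0382. PMVK was between 18.4 and 25.5 CPM over all 12 libraries and GGPS1, which makes the diphosphate used for protein prenylation, between 20.2 and 24.2 CPM.

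In the sterol arm, 8 of 11 genes rose in the combination group and none fell, with a median of 0.23. In the everolimus group 1 rose and 4 fell (median -0.09), and in the SGI-1027 group 3 rose and 2 fell (median 0.01). GENCODE names 3 pseudogenes after CYP51A1 and 2 after HSD17B7, so their counts may share reads. FDFT1, which commits farnesyl units to squalene, had 107, 112 and 117 CPM with DMSO, 116, 113 and 118 with everolimus, 119, 122 and 111 with SGI-1027, and 140.3, 144 and 137 with the combination. Its single-drug libraries overlapped with DMSO, and every combination library was above them all. The rise was 0.32 ± 0.04 (SE), adjusted P = 4.86e-06. Under upper-quartile scaling FDFT1 was also called higher with everolimus (0.11, adjusted P = 0.0388) and with SGI-1027 (0.12, adjusted P = 0.0298). SQLE, the squalene epoxidase and a rate-limiting enzyme of the arm, had 158.5, 158.5 and 166 CPM with DMSO, 161, 159 and 152 with everolimus, 154, 162 and 167 with SGI-1027, and 178.5, 185 and 181 with the combination. As with FDFT1, the combination was the only group wholly above DMSO, by 0.17 ± 0.04 (SE) with an adjusted P of 0.00108.

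MSMO1, the oxidase that removes methyl groups from the sterol ring, had 30.97, 37.9 and 38.7 CPM with DMSO, 40.3, 39.7 and 38.9 with everolimus, 50.9, 53.0 and 41.4 with SGI-1027, and 59.6, 56.3 and 50.3 with the combination. All treated libraries were above all DMSO libraries, the everolimus group by a narrow margin. MSMO1 rose by 0.43 ± 0.09 (SE) with SGI-1027 and by 0.63 ± 0.09 with the combination, and its value of 0.14 with everolimus did not pass the test. TM7SF2, a sterol reductase, was scarce, at 1.77, 1.75 and 1.36 CPM with DMSO, 2.78, 3.27 and 2.27 with everolimus, 3.10, 2.93 and 2.54 with SGI-1027, and 3.23, 2.88 and 3.71 with the combination. All treated libraries exceeded all DMSO libraries, and the log2 fold changes were 0.77 ± 0.18, 0.81 ± 0.18 and 1.01 ± 0.18 (SE). These rest on a mean of 102 counts per library.

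LSS, which closes the sterol ring, fell with everolimus (-0.13) and rose with SGI-1027 (0.16) and with the combination (0.27), and its everolimus value under upper-quartile scaling was -0.05 with an adjusted P of 0.274. HSD17B7 (0.29), CYP51A1 (0.23) and SC5D (0.22), which act on later intermediates, passed the test only in the combination comparison. For CYP51A1 the rise was 0.10 without DMSO replicate 1, with an adjusted P of 0.218, and without everolimus replicate 2 or combination replicate 1 or 3 the adjusted P was 0.0506, 0.115 and 0.0810. Without DMSO replicate 1 CYP51A1 was lower with everolimus than with DMSO (-0.27, adjusted P = 0.00398). DHCR7, the last enzyme of one branch to cholesterol, had 158.5, 154 and 146 CPM with DMSO, 112, 115 and 114 with everolimus, 131, 136 and 146 with SGI-1027, and 145, 145 and 146 with both drugs. It fell by 25.6% with everolimus (-0.43 ± 0.04, SE, adjusted P = 2.005e-07) and by 10.0% with SGI-1027, while the combination value of -0.07 did not pass. Under upper-quartile scaling the DHCR7 call with SGI-1027 was lost (-0.10, adjusted P = 0.0557). NSDHL fell with everolimus (-0.19) and with SGI-1027 (-0.20), and its everolimus call was lost without everolimus replicate 2 (adjusted P = 0.0663) or under upper-quartile scaling (-0.11, adjusted P = 0.101). EBP fell with everolimus (-0.14), but without any one of DMSO replicates 1 to 3 or everolimus replicates 1 and 2 its adjusted P was 0.05 to 0.118, and under upper-quartile scaling it was 0.307 (-0.07).

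Among the SREBP regulators, SREBF2 and INSIG2 rose in every treated group, and INSIG1 rose with SGI-1027 and, by more, with the combination. SREBF2 had 221, 222 and 221 CPM with DMSO, 279, 278 and 285 with everolimus, 295, 303 and 328 with SGI-1027, and 316, 320.3 and 334 with the combination. None of the treated libraries overlapped with DMSO. The increases were 26.8% for everolimus, 39.5% for SGI-1027 and 46.3% for both drugs, with adjusted P values of 1.11e-06, 1.02e-08 and 1.24e-09. INSIG2 had 10.1, 12.9 and 12.5 CPM with DMSO, 17.4, 16.9 and 15.6 with everolimus, 17.95, 18.0 and 13.4 with SGI-1027, and 17.8, 19.4 and 18.1 with the combination. SGI-1027 replicate 3 was only just above the DMSO libraries, and the log2 fold changes were 0.49, 0.47 and 0.64, each with an SE of 0.11.

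INSIG1 had 44.8, 47.0 and 50.2 CPM with DMSO, 51.1, 49.6 and 44.5 with everolimus, 50.6, 58.1 and 57.9 with SGI-1027, and 78.9, 82.7 and 80.5 with the combination. Everolimus libraries overlapped with DMSO, and the combination libraries were far above all others. The change was 0.03 ± 0.06 (SE) with everolimus, 0.23 ± 0.06 with SGI-1027 and 0.77 ± 0.06 with both, the last an increase of 70.5% with an adjusted P of 4.42e-09. SCAP, the escort of SREBP2, lay between 95.9 and 113 CPM in all libraries, and its combination value of -0.10 had an adjusted P of 0.0989.

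**Figure D3:**
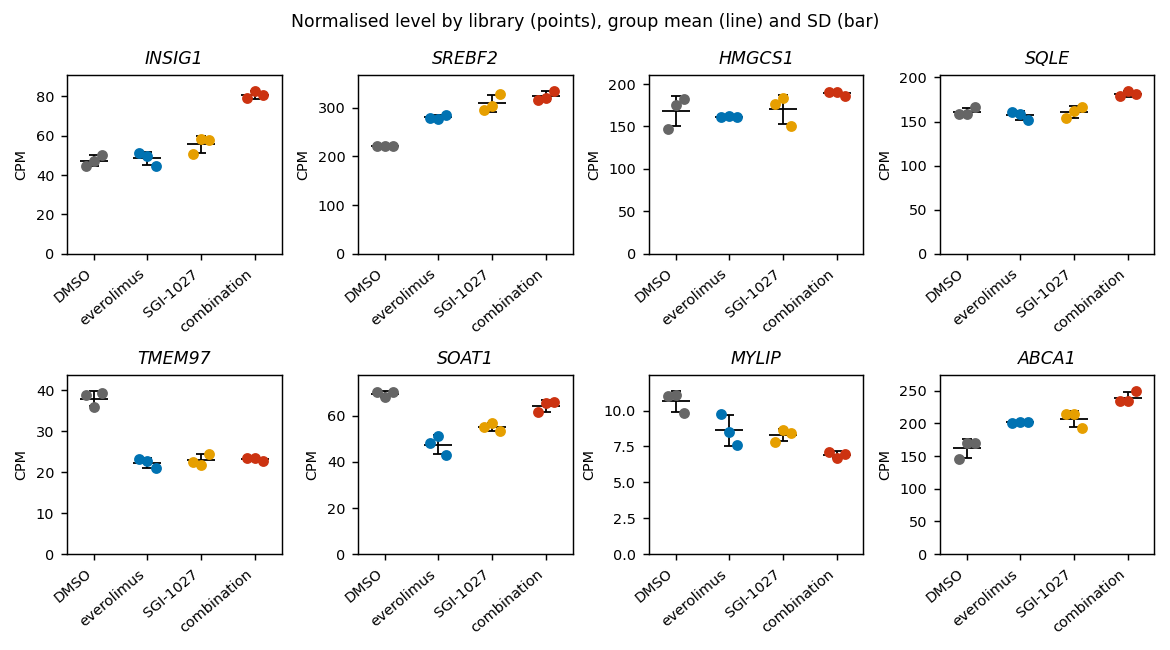
Level in CPM of 8 genes in each of the 3 libraries per group, with the group mean (line) and SD (bar) and every axis starting at 0. INSIG1 is at 78.9 to 82.7 CPM in the combination group and at most 58.1 elsewhere, TMEM97 is at 21.0 to 24.5 CPM in the treated groups, and SOAT1 is lowest with everolimus.

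Of the uptake and handling genes, TMEM97 and MYLIP fell in all treated groups while STARD4 rose with SGI-1027 and the combination and SOAT1 fell with each single drug. TMEM97, the sigma-2 receptor, which promotes lipoprotein uptake, had 38.75, 35.8 and 39.2 CPM with DMSO, 23.3, 22.7 and 21.0 with everolimus, 22.5, 21.8 and 24.5 with SGI-1027, and 23.45, 23.4 and 22.8 with the combination. The treated groups did not overlap with DMSO and overlapped with each other. The decreases were 41.2%, 39.5% and 38.8%, all with SE of 0.06 on the log2 scale, and the combination differed from everolimus by 0.06 (95% interval -0.08 to 0.19) and from SGI-1027 by 0.02 (-0.12 to 0.15). TMEM97 shares 361 exonic bases with IFT20 on the other strand, and whether the counting used strand is not given in the sources used here. GENCODE also names 2 pseudogenes after TMEM97, so its counts may share reads with them.

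MYLIP had 11, 11.1 and 9.82 CPM with DMSO, 9.76, 8.501 and 7.63 with everolimus, 7.82, 8.615 and 8.46 with SGI-1027, and 7.11, 6.67 and 6.99 with the combination. Every treated library was below every DMSO library, by a small margin for everolimus replicate 1. It fell by 19.0% with everolimus, 22.0% with SGI-1027 and 34.9% with both drugs, and the everolimus call was lost without everolimus replicate 3 (adjusted P = 0.0718). STARD4, a carrier that moves sterol between membranes, had 19.9, 20.5 and 21.7 CPM with DMSO, 19.0, 19.3 and 18.4 with everolimus, 24.2, 23.9 and 22.4 with SGI-1027, and 25.7, 25.0 and 27.4 with the combination. The everolimus libraries were all below DMSO and those of the other treated groups all above. STARD4 rose by 0.18 ± 0.06 (SE) with SGI-1027 and by 0.33 ± 0.06 with the combination, whereas its everolimus value of -0.13 had an adjusted P of 0.0773. Without DMSO replicate 1 and SGI-1027 replicate 3 together, the everolimus value was -0.16 with an adjusted P of 0.0429. Leaving out DMSO replicate 1 (adjusted P = 0.0554) or SGI-1027 replicate 1 (adjusted P = 0.0579) ended the SGI-1027 call. SOAT1, which esterifies cholesterol for storage in droplets, had 70.1, 68.1 and 70.25 CPM with DMSO, 48.2, 51.2 and 43.1 with everolimus, 55.2, 56.95 and 53.6 with SGI-1027, and 61.5, 65.5 and 66.1 with the combination. The combination libraries lay between the single-drug and the DMSO libraries. SOAT1 fell by 31.7% with everolimus and by 20.5% with SGI-1027, and its combination value of -0.11 ± 0.06 (SE) did not pass the test (adjusted P = 0.0871), although it did without everolimus replicate 3 (adjusted P = 0.0494).

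Of the 3 tested LXR genes, only the exporter ABCA1 passed the test with TMM scaling and all libraries in the fit. It had 145.5, 169.9 and 171 CPM with DMSO, 200.1, 203 and 202.5 with everolimus, 214, 214 and 193 with SGI-1027, and 234, 234 and 249 with both drugs. No treated library overlapped with DMSO, and the combination libraries were the highest. ABCA1 rose by 24.5% under everolimus, 27.8% under SGI-1027 and 47.7% under both, with adjusted P values of 8.94e-05, 2.14e-05 and 5.55e-08. MYLIP, known like ABCA1 as an LXR target, moved the other way in each group, as given above. The receptor NR1H2 had 44.4, 39.98 and 41.5 CPM with DMSO, 45.6, 43.8 and 47.4 with everolimus, 45.4, 44.1 and 42.3 with SGI-1027, and 46.5, 43.4 and 42.7 with the combination. Its partner receptor NR1H3 was lower, with 7.92, 6.24 and 7.17 CPM with DMSO, 6.46, 7.18 and 8.18 with everolimus, 6.83, 7.26 and 7.23 with SGI-1027, and 6.80, 6.17 and 6.44 with the combination. For both receptors the groups overlapped or nearly met, and no comparison passed the test with TMM scaling and all libraries. The settings that called NR1H2 against DMSO are given above. ABCG1 had 0 counts in the DMSO libraries, 0, 2 and 0 with everolimus, 0, 1 and 1 with SGI-1027, and 0, 2 and 1 with both drugs, so a change in it was not detectable at this depth.

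Set side by side, the 19 synthesis genes and the 7 tested uptake, handling and efflux genes had the following counts, with no test between the lists. With everolimus 1 synthesis gene rose and 7 fell, and 1 uptake, handling or efflux gene rose and 3 fell. The corresponding numbers were 3 and 4 against 2 and 3 with SGI-1027, and 11 and 0 against 2 and 2 with both drugs. Among all tested genes, 27.2% rose and 29.2% fell with everolimus, 32% and 30.6% with SGI-1027, and 32.8% and 33.4% with both. The median log2 fold change of synthesis went from -0.09 with everolimus to -0.003 with SGI-1027 and 0.17 with both drugs, and that of uptake, handling and efflux from -0.13 to 0.001 and -0.11. The median over all tested genes was between 0.001 and 0.02 in these comparisons. Under upper-quartile scaling the everolimus count for synthesis was 3 higher and 4 lower, and over all genes it became 4480 higher and 2901 lower instead of 3488 and 3749. When DMSO replicate 1 and SGI-1027 replicate 3 were both left out, 11 synthesis genes fell with everolimus.

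The mean over the genes of a role group, was also taken per library as the log2 difference from the DMSO mean, as a description with no test. For the sterol arm it was -0.03 to -0.0004 in the everolimus libraries, 0.03 to 0.14 with SGI-1027 and 0.27 to 0.30 with the combination, against -0.04 to 0.04 in the DMSO libraries themselves. For the mevalonate arm it was -0.13 to -0.09 with everolimus and 0.05 to 0.09 with the combination, and the SGI-1027 libraries spread from -0.17 to 0.02, with SGI-1027 replicate 3 the lowest. Uptake and handling was below DMSO in every treated library. It was at -0.55 to -0.37 with everolimus, -0.33 to -0.29 with SGI-1027 and -0.29 to -0.25 with the combination. This mean joins genes of unlike action and does not give the direction of uptake. MYLIP removes lipoprotein receptors, TMEM97 promotes uptake, SOAT1 esterifies cholesterol, and STARD4 rose with SGI-1027 and the combination. The SREBP regulators were at 0.17 to 0.25, 0.26 to 0.32 and 0.42 to 0.49. The 3 LXR and efflux genes had means of 0.10 to 0.24, 0.10 to 0.17 and 0.13 to 0.21, above 0 in every treated library. The combination means lay inside the range of the everolimus libraries. Taken singly in the combination libraries, ABCA1 was at 0.54 to 0.63, NR1H2 at 0.03 to 0.15 and NR1H3 at -0.20 to -0.06. Only ABCA1 was called.

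**Figure D4:**
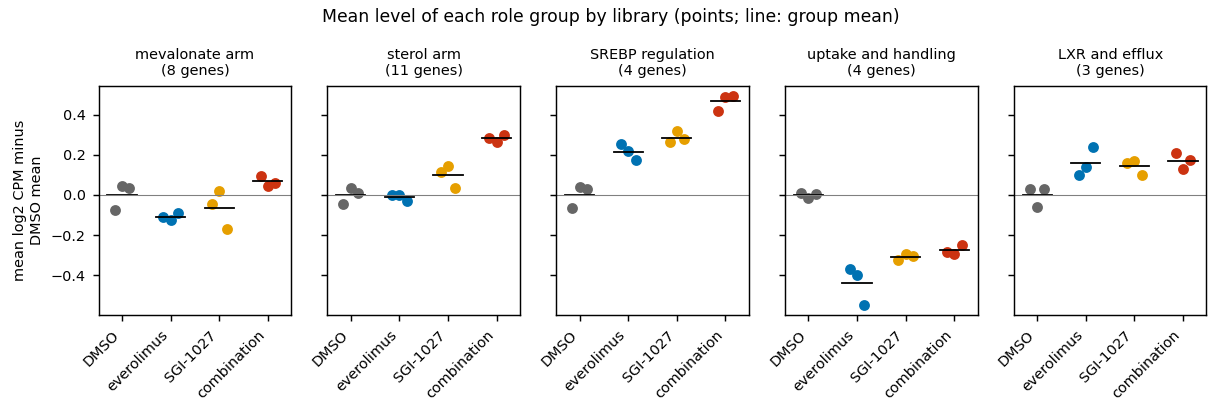
Mean log2 CPM over the genes of each role group minus the DMSO mean, 1 point per library (3 per group) with the group mean as a line. The sterol arm is at 0.27 to 0.30 in the combination libraries and below 0.15 in all others. Uptake and handling, a mean over genes of unlike action, is below 0 in every treated library.

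The combination was then compared directly with each drug. If everolimus alone was given at 10 µM, as the free-text protocol has it, the comparison with everolimus and the interaction below set unequal doses side by side, and dose and combination cannot be told apart in them. Against everolimus, 14 of 19 synthesis genes were higher and 1, GGPS1, was lower (-0.17, adjusted P = 0.0427), while 20.1% and 19.2% of all tested genes were higher and lower. The larger differences were those of MSMO1 (0.48), LSS (0.39), HSD17B7 (0.38) and CYP51A1 (0.37). Outside synthesis, INSIG1 (0.74 ± 0.06, SE), STARD4 (0.46), SOAT1 (0.44), ABCA1 (0.25) and SREBF2 (0.21) were higher and MYLIP (-0.32) was lower. Leaving out everolimus replicate 1 or 3, SGI-1027 replicate 1 or combination replicate 2 or 3 ended the GGPS1 call (adjusted P 0.05 to 0.158). The SC5D call ended without any everolimus library or without combination replicate 1 or 2 (0.0519 to 0.175), and that of MYLIP without everolimus replicate 1 or combination replicate 2 (0.112 and 0.0665). Against SGI-1027, 6 of 19 synthesis genes were higher and none lower, where 9.4% and 10.2% of all tested genes were. The 6 were MVK, IDI1, FDPS, FDFT1, SQLE and HSD17B7, at 0.17 to 0.36, and they were joined by INSIG1 (0.54 ± 0.06, SE), SOAT1 (0.22) and ABCA1 (0.21). Of these, MVK was lost without SGI-1027 replicate 1 or combination replicate 1 or 3 (adjusted P 0.0960 to 0.159), FDPS without SGI-1027 replicate 3 or combination replicate 3 (0.0738 and 0.0963), and ABCA1 without combination replicate 3 (0.0617). Without DMSO replicate 1 and SGI-1027 replicate 3 the count of synthesis genes above SGI-1027 was 10. The mean of 18 of the 19 synthesis genes was highest, of the 3 treated groups, in the combination, as it was for 7 of the other 11 tested genes and for 37.2% of all tested genes.

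The single drugs were also compared with each other. SGI-1027 libraries had higher levels than everolimus libraries for 8 of the 30 genes and lower levels for none, where 13% of all tested genes were higher and 9.51% lower. The synthesis genes were LSS (0.29), MSMO1 (0.29), DHCR7 (0.27) and MVD (0.17), and the others were STARD4 (0.32), SOAT1 (0.22), INSIG1 (0.20) and SREBF2 (0.14). For synthesis this count was 2 without everolimus replicate 1, everolimus replicate 2 or SGI-1027 replicate 2, where MVD and MSMO1 lost their calls, and 7 without SGI-1027 replicate 3. MSMO1 also lost it without everolimus replicate 3 or SGI-1027 replicate 1, SOAT1 without everolimus replicate 3 (adjusted P = 0.0645), SREBF2 without everolimus replicate 1 or 2 or SGI-1027 replicate 3 (0.0686 to 0.0880) and INSIG1 without everolimus replicate 2 or 3 or SGI-1027 replicate 2 or 3 (0.0561 to 0.162). It was 10 without both DMSO replicate 1 and SGI-1027 replicate 3.

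Whether the combination departed from the sum of the single-drug log2 changes was tested with an interaction term. It was above the sum for 17 of the 30 genes and below it for 2, where 23.6% of all tested genes were above and 22.1% below (under upper-quartile scaling 2335 genes were above and 3578 below, instead of 3028 and 2833). Of the 19 synthesis genes 13 were above and GGPS1 was below (-0.27). INSIG1 was above by 0.51 ± 0.09 (SE, adjusted P = 0.000141), having moved by 0.03 and 0.23 with the single drugs. DHCR7 (0.50), ACAT2 (0.51) and MVK (0.45) were also above, but these fell with each drug alone and were nearer to DMSO with the combination. TMEM97 (0.78 ± 0.09, SE) was above the sum with a fall under both drugs of about the size seen with each alone, and SOAT1 (0.77 ± 0.08) with a fall under each drug alone that was not called under both. SREBF2 was below the sum (-0.27 ± 0.06, adjusted P = 0.000720), its rise with both drugs being smaller than the 2 single-drug rises added together. ABCA1 at -0.11 (95% interval -0.27 to 0.06) and MYLIP at 0.04 (-0.25 to 0.33) did not pass. HMGCS1, at 0.21 with an adjusted P of 0.0794, passed without DMSO replicate 1 (0.30, adjusted P = 0.00347) or SGI-1027 replicate 2, and INSIG2, at -0.32, passed without SGI-1027 replicate 3 (-0.45, adjusted P = 0.00388). TM7SF2, at -0.58, passed without everolimus replicate 3 (-0.70, adjusted P = 0.0355). NR1H2, at -0.11, passed without DMSO replicate 1 and SGI-1027 replicate 3 together (-0.18, adjusted P = 0.0383). The GGPS1 call ended without DMSO replicate 3, everolimus replicate 1, SGI-1027 replicate 2 or combination replicate 2 or 3 (adjusted P 0.0523 to 0.0622). That of CYP51A1 (0.36) was lost without any of 9 libraries, with adjusted P values of 0.0522 to 0.118. Under upper-quartile scaling the calls of FDFT1 (0.14, adjusted P = 0.0719), CYP51A1 (0.28, adjusted P = 0.0990) and STARD4 (0.21, adjusted P = 0.0605) were lost.

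**Figure D5:**
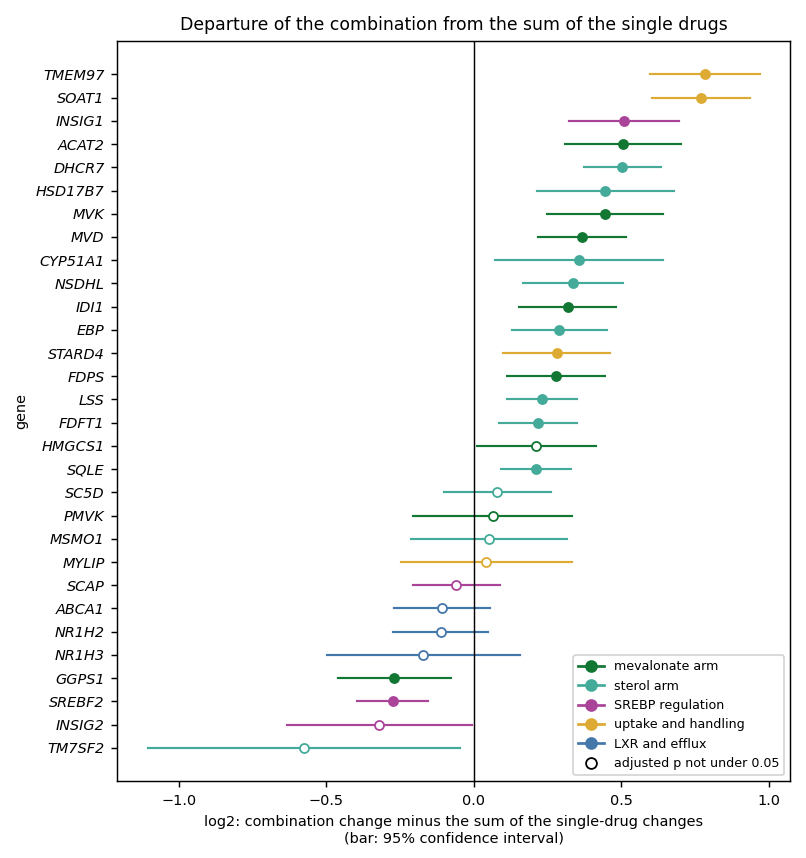
Log2 change in the combination minus the sum of the single-drug log2 changes for each of the 30 tested genes, with its 95% confidence interval, coloured by role and filled for adjusted P under 0.05. TMEM97 and SOAT1 are at the top, near 0.78 and 0.77, and GGPS1 and SREBF2 are the filled points to the left of 0.

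Other sterol genes were read from lists of neighbouring functions, of which 68 of 78 listed genes were tested. In the combination group 24 rose and 27 fell, with a median of -0.12. Over all tested genes, 32.8% rose and 33.4% fell in that group, 27.2% and 29.2% with everolimus and 32% and 30.6% with SGI-1027. Of the 19 tested genes of isoprenoid use and other synthesis steps, 12 fell and 4 rose (median -0.32), with 12 and 2 in the everolimus group and 11 and 2 in the SGI-1027 group. Of the 26 genes of lipoprotein uptake and of lysosomal or membrane sterol transfer, 12 rose and 6 fell in the combination group. The lysosomal cholesterol carrier NPC2 rose by 0.65, 0.75 and 1.096 under everolimus, SGI-1027 and both, the endocytic receptor LRP1 by 0.79, 1.04 and 0.86, and the sterol transfer protein GRAMD1B fell by 0.81, 0.79 and 1.51 on the log2 scale. GRAMD1B was scarce, at a mean of 2.38 CPM in DMSO (SD 0.79), where replicate 1 was highest at 3.27, and 0.83 CPM with both drugs. Of the 11 tested LXR partners, targets, oxysterol and esterification genes, 3 rose and 6 fell in the combination group. Their ATP-binding cassette members ABCA3 and ABCA7 rose by 2.18 and 1.34, and SOAT2, a second sterol esterification enzyme at only 1.24 CPM in DMSO, fell by 3.33. LPCAT3, on the same list, fell by 0.42 with everolimus and by 0.40 with SGI-1027. Its mean was 41.6 CPM in DMSO and 24.1 CPM with both drugs. Of 12 genes of SREBP processing and sterol sensing, 5 rose and 3 fell with the combination.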

How the data were processed

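RNA sequencing of 786-O cells gave 12 libraries in 4 groups of 3, grouped by the sample records. The records name a SMARTER library kit, while the paper's methods name a stranded mRNA kit, and the processing notes list the mouse builds GRCm38 and mm10 although the gene symbols are human. The aligner, counter and annotation are not given in the sources used here. The deposited raw counts per gene were used for all tests, and the deposited FPKM values, which the authors scaled by transcript length and depth, were used for comparisons between genes and as an alternative. Counts were filtered by expression in the 4 groups (12841 of 17085 genes kept) and scaled by TMM. They were tested with edgeR 4.0.16 (quasi-likelihood test, all 12 libraries in a single fit, R 4.3.3), with Benjamini-Hochberg adjustment over all tested genes. The study's cut-off (log2 fold change of 1 or more in either direction, unadjusted P under 0.05) was counted as well. Levels are TMM-scaled CPM, errors are SD or SE as stated, and intervals are 95% confidence intervals of the fit. The fit was tested on simulated data.

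The members, role groups and neighbouring lists were chosen with earlier results of these data known. All members are named. Values per library are given for HMGCS1, SQLE, INSIG1, ABCA1 and, in each role group, the 3 genes with the largest absolute change in the combination, and DHCR7 and SOAT1 were added after their values were seen. Neighbouring genes are named where they rose or fell by 1 or more on the log2 scale in any group. LPCAT3, which did not reach that size, was added after its values were seen. Same-numbered replicates did not deviate together. Alternatives were upper-quartile and RLE factors, DESeq2 1.42.0, no filter or at least 10 counts in every library, a replicate block, only the groups compared, limma 3.58.1 on log2(FPKM + 1) and log2(FPKM + 0.1), and each library left out. Leaving out DMSO replicate 1 and SGI-1027 replicate 3 together was chosen after seeing the data. Exon overlaps and pseudogene names came from GENCODE release 29, and promoter sequences from RefSeq, on GRCh38, which may not be the build used for counting. Read counts without molecular identifiers are not independent molecules, so depth limits cover counting error only.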

Additional observations from a re-analysis of the deposited data

Results flagged for a closer look

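The effect of each drug differed with the presence of the other, by the interaction term at an adjusted P under 0.05, for 19 genes. The combination was above the sum of the single-drug log2 changes for TMEM97 (0.78), SOAT1 (0.77), INSIG1 (0.51), ACAT2 (0.51), DHCR7 (0.50), HSD17B7 (0.45), MVK (0.45), MVD (0.37), CYP51A1 (0.36), NSDHL (0.34), IDI1 (0.32), EBP (0.29), STARD4 (0.28), FDPS (0.28), LSS (0.23), FDFT1 (0.22) and SQLE (0.21). It was below the sum for SREBF2 (-0.27) and GGPS1 (-0.27). These values are log2 differences of 3 libraries per group. Under upper-quartile scaling the calls of FDFT1 (0.14, adjusted P = 0.0719), CYP51A1 (0.28, adjusted P = 0.0990) and STARD4 (0.21, adjusted P = 0.0605) were lost. A value above 0 covers genes that passed the test against DMSO with the combination and with neither single drug, such as SQLE. It also covers genes that fell with each drug alone, where the change with both drugs was not called (SOAT1) or was about the same size (TMEM97). If everolimus alone was given at 10 µM instead of 5 µM, these values set unequal doses side by side, and dose and combination cannot be told apart.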

How the results depend on the processing

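Over all comparisons, 4405 of 4590 gene values under an alternative kept their side of the threshold with no called change of direction. Of the rest, 100 lost the call, 85 gained one and 0 changed direction with a call in either setting. The 4405 include 97 values that changed sign without a call in either setting. For comparisons with DMSO, 1918 of 1980 were kept in this sense. Under upper-quartile factors the count of synthesis genes was 3 higher and 4 lower with everolimus, 2 lower with SGI-1027, and 2 below the sum of the single drugs, and the median of all genes moved to between 0.06 and 0.08 against DMSO. RLE factors gave 1 synthesis gene lower with the combination than with DMSO. The synthesis gene lower with the combination than with everolimus was lost (0 genes) with no filter, with a replicate block and in both FPKM settings. Both FPKM settings gave 10 synthesis genes higher with the combination than with SGI-1027. Leaving out DMSO replicate 1 and SGI-1027 replicate 3 gave 11 lower with everolimus, 10 higher with the combination than with SGI-1027, 10 higher with SGI-1027 than with everolimus and 2 below the sum. The cause was not tested.

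When each library was left out in turn, the synthesis genes higher than DMSO numbered 1 to 2 with everolimus (2 without DMSO replicate 2), 3 in every case with SGI-1027 and 9 to 11 with the combination, and those lower 5 to 9, 3 to 4 and 0 to 1 (MVK without SGI-1027 replicate 1). With the combination 13 to 15 were higher and 0 to 1 lower than with everolimus, and 4 to 9 were higher than with SGI-1027. With SGI-1027 2 to 7 were higher than with everolimus. In the interaction 12 to 14 were above and 0 to 2 below the sum (2 without everolimus replicate 3). Uptake, handling and efflux genes called were 3 to 5 with everolimus, 4 to 5 with SGI-1027, 4 to 5 with the combination, 3 to 4 for the combination against everolimus, 1 to 2 against SGI-1027 (1 without combination replicate 3), 1 to 2 for SGI-1027 against everolimus (1 without everolimus replicate 3) and 3 in every case in the interaction. The replicate numbers share only a number: 0 of 18 same-numbered pairs correlated above 0.1 and 1 of 12 libraries correlated best with its own number, and the block changed no other synthesis or uptake count by over 1.5 times. Depth limits ABCG1 and makes TM7SF2, with 102 counts per library, less precise than the others.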
